A study of Mus musculus with 3 samples.

Results

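The Ifitm genes encode small interferon-inducible transmembrane proteins. They were followed here as 4 genes, Ifitm1 (ENSMUSG00000025491), Ifitm2 (ENSMUSG00000060591), Ifitm3 (ENSMUSG00000025492) and Ifitm6 (ENSMUSG00000059108), taken by symbol from the 56980 gene rows of 3 droplet libraries of mouse bone marrow. The libraries held bone marrow cells of C57BL/6 mice at day 14. The first came from mice without irradiation (Control), the second from mice given 6.0 Gy of gamma rays and solvent (IR), and the third from mice given 6.0 Gy and cannabidiol (IR+CBD), a plant cannabinoid injected at 50 mg/kg in 4 doses between 12 h before and 24 h after irradiation. No age was given for the mice of these libraries. Every library was pooled from 3 mice after Lin-Kit+, Lin-Kit- and Lin+ cells had been sorted and mixed again at 5:4:1, so that Kit+ progenitors were enriched and the shares of cell types were partly set by the mixing. With 1 library per condition there was no replicate check, no test between conditions was possible, and every interval below covers counting error only.

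Ifitm proteins sit in the plasma and endosomal membranes, where they hinder the fusion of enveloped viruses with the cell. Type I interferon binds a receptor on the cell surface, and kinases on its inner side pass the signal to transcription factors that bind the interferon-stimulated response element (ISRE) of target genes. Many interferon targets are nearly silent without interferon, whereas stem cells of several tissues are known to hold some of them, Ifitm genes included, at a steady level without infection.

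The sequences just before the start sites of the 4 members are shown because members of 1 gene cluster moved in opposite directions. They are the last 100 bases before the start, from RefSeq on GRCm38.p6, with matches to GAAANNGAAA (the core of an ISRE) or to TTCNNNGAA (the gamma-activated site) in capitals.

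Ifitm1, chr7:140967976-140968075, plus strand: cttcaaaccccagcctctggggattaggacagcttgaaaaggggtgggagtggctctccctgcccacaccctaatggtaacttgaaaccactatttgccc

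Ifitm2, chr7:140955962-140956061, minus strand: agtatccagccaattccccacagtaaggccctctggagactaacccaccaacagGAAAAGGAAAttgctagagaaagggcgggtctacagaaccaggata

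Ifitm3, chr7:141010745-141010844, minus strand: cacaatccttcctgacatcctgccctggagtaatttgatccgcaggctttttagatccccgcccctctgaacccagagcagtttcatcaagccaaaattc

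Ifitm6, chr7:141016893-141016992, minus strand: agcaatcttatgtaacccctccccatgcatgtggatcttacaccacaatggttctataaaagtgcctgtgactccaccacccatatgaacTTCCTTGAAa

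The matches of Ifitm3 lay just after its annotated start, at chr7:141010714-141010742 on the minus strand, bases 3 to 31 counted from the start, with the longer form GAAANNGAAACT in capitals.

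Ifitm3, after the start: GAAAAGGAAACTtctgaGAAACCGAAACT

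Both strands of the full windows, 250 bases before to 50 bases after the start, were searched. Ifitm3 held 2 matches to GAAANNGAAA, and both went on as GAAANNGAAACT. Ifitm2 held 1, which did not, at bases -46 to -37, and Ifitm1 and Ifitm6 held none. Of all 32851 mouse windows, 3.44% held GAAANNGAAA and 0.271% held GAAANNGAAACT. TTCNNNGAA was in 8.30% of windows and occurred once in Ifitm3, at bases 14 to 22, where it overlapped both longer matches by at least 1 base, and once in Ifitm6. A match is a description of letters, and its use in these cells was not measured.

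Of 36035 barcodes, 31292 had at least 200 detected genes and at most 5% mitochondrial UMIs (unique molecular identifiers, 1 per captured transcript) and were kept. The Control library gave 10674 of these cells, the IR library 10345 and the IR+CBD library 10273. They held 194839224, 202361682 and 173466089 UMIs, with a median of 12480, 14211 and 12502 per cell. Libraries shared 26 to 34 barcodes by pair, at most 0.331% of the smaller library. Levels are given as CPM, the UMIs of a gene as counts per 1000000 UMIs summed over the cells of a population in 1 library. Populations were 6 overlapping gates on raw UMIs. They were Mpo (5 or more, myeloid progenitors), Klf1 (2 or more, erythroid cells), Cd79a (2 or more, B lineage), Retnlg (5 or more, maturing neutrophils), Siglech (3 or more, plasmacytoid dendritic cells), and at least 1 UMI each of Cd34 and Adgrl4.

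The other gates had the summed markers of their cell types at 1.71 to 20.8 times the level over all cells in every library. The Siglech gate of IR stood apart, with 46 cells and neutrophil markers at 20097 CPM against 5858 in Control and 5576 in IR+CBD. The stem cell markers listed below summed to 594 CPM there, against 174 in Control and 150 in IR+CBD. What these markers meant for the values of that gate was not tested.

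The Cd34/Adgrl4 gate held 3116 Control, 1952 IR and 1970 IR+CBD cells (29.2, 18.9 and 19.2% of those kept), and it was broader than a stem cell gate. Of these cells, 2149, 1706 and 1643 also passed the Mpo gate. A list of 7 stem cell markers (Hlf, Mecom, Procr, Mllt3, Fgd5, Kit and Ly6a) summed to 275, 243 and 253 CPM, only 1.33, 1.20 and 1.29 times the level over all cells. The 972, 377 and 436 gated cells with at least 1 UMI each of Hlf and Mecom had the list at 663, 616 and 627 CPM, with Hlf and Mecom themselves part of the list. These Hlf/Mecom cells were richer in the list than the whole gate, but they were not stem cells alone. Of them, 46.8, 66.0 and 60.3% also passed the Mpo gate, a share that differed between libraries. Hlf and Mecom are low transcripts, and deeper cells pass more easily (median 20604 UMIs in Control and 31433 in IR). The 5 endothelial markers, which Adgrl4 could have brought in, summed to at most 4.76 CPM in the Cd34/Adgrl4 gate, below the 5.77 to 7.68 CPM over all cells.

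Over all cells, Ifitm1 stood at 561, 235 and 280 CPM in the Control, IR and IR+CBD libraries, the order kept for all sets of values below, whereas Ifitm3 stood at 485, 725 and 362. The IR library was thus low in Ifitm1 and high in Ifitm3. Ifitm2 (598, 477 and 496 CPM) and Ifitm6 (367, 302 and 361 CPM) moved less. The IR over Control ratio was 0.420 (95% interval 0.415 to 0.424) for Ifitm1, 0.798 (0.792 to 0.805) for Ifitm2, 1.4957 (1.48 to 1.51) for Ifitm3 and 0.823 (0.814 to 0.832) for Ifitm6. With a call set at 1.5-fold, Ifitm1 was the 1 member called lower, beside 9.82% of all 20226 genes with at least 50 UMIs. Ifitm3 came just short of the call that 5.25% of genes passed as higher.

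IR+CBD over IR was 0.499 (0.495 to 0.504) for Ifitm3, the 1 member called, where 2.85% of genes were called lower. It was 1.19 (1.18 to 1.21) for Ifitm1, and IR+CBD over Control was 0.4998 (0.494 to 0.505), so that Ifitm1 stayed well under its Control level in IR+CBD. In sums over all cells a change in the mix of cells and a change in level per cell cannot be told apart. The same holds within a gate. Of Cd34/Adgrl4 cells, 69.0, 87.4 and 83.4% also passed the Mpo gate, and 31.2, 19.3 and 22.1% had Hlf and Mecom UMIs. In the Klf1 gate the erythroid markers summed to 3620.5 CPM in Control (586 cells) and 2136.2 in IR (1446 cells). With combinations of gates weighted by their Control shares, IR over Control was 0.549 for Ifitm1 and 1.70 for Ifitm3.

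The members divided the marrow differently in Control. Ifitm1 was highest in the Cd34/Adgrl4 gate at 931 CPM, followed by Mpo at 672 and Retnlg at 659, whose intervals overlapped, then Cd79a at 234, Siglech at 186 and Klf1 at 124. Ifitm3 was highest in the Retnlg gate at 1368 CPM, followed by Cd34/Adgrl4 at 520, Mpo at 449, Cd79a at 224, Siglech at 162 and Klf1 at 119. Ifitm2 was spread in between, with 1550 CPM in Retnlg, 619 to 635 in Mpo and Cd34/Adgrl4, and 218 to 344 in the other gates. Ifitm6 was a neutrophil gene, at 4172 CPM in Retnlg and at most 130 in any other gate.

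**Figure D1:**
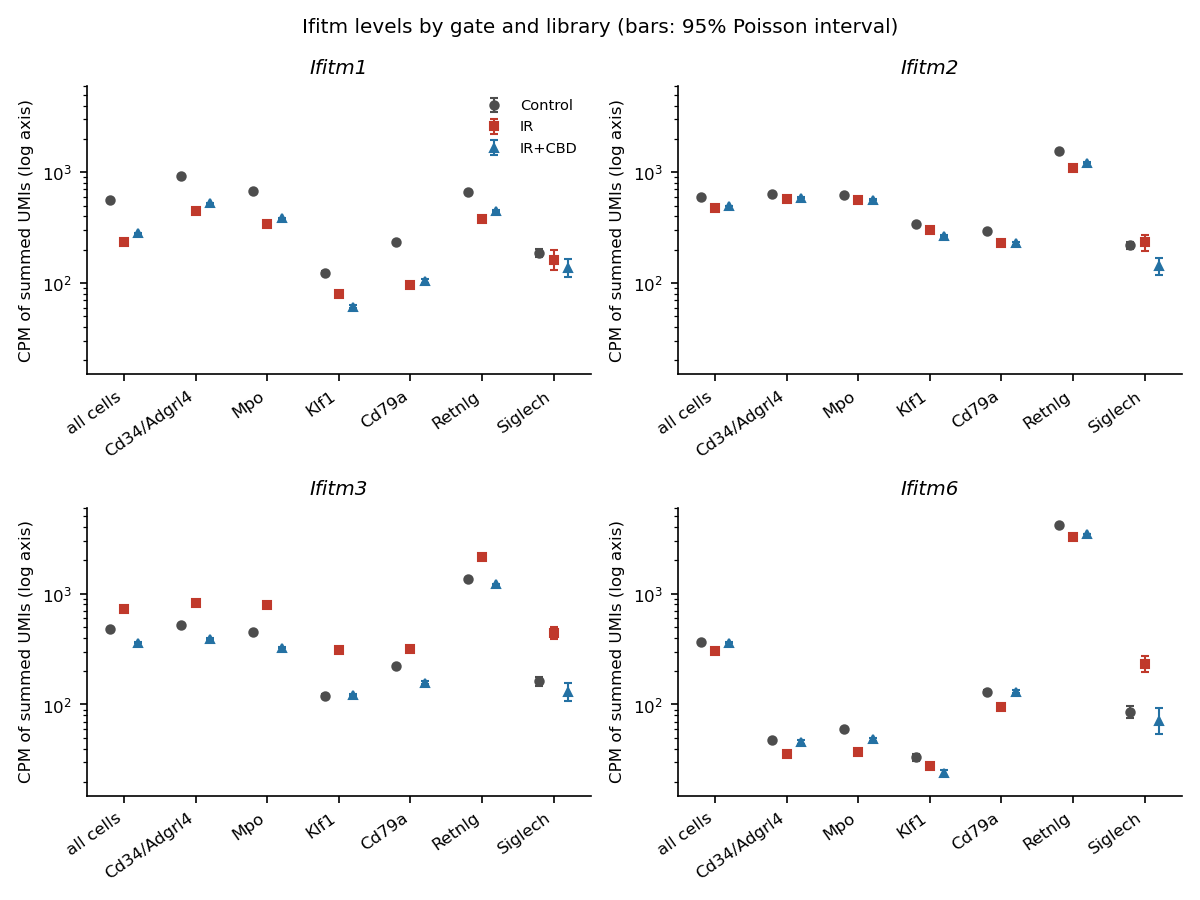
CPM of summed UMIs (log axis) of the 4 members in all cells and the 6 gates, with Control as grey circles, IR as red squares, IR+CBD as blue triangles and 95% Poisson intervals as bars. Ifitm1 was highest in the Cd34/Adgrl4 gate in every library, Ifitm3 was highest in the IR library in every population, and Ifitm6 was high in the Retnlg gate.

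Ifitm1 was the member most concentrated in the Cd34/Adgrl4 gate. With cells of both gates left out, its Control level there was 17.6 times that of the Klf1 gate (16.6 to 18.7), 16.4 times that of the Cd79a gate (15.5 to 17.3), 11.8 times that of the Siglech gate (10.2 to 13.8) and 5.85 times that of the Mpo gate (5.70 to 6.01). For Ifitm3 the same comparisons gave 5.51, 3.82, 5.70 and 1.90. Against the Retnlg gate Ifitm1 was at 1.57 and Ifitm3 at 0.339, so that of these members only Ifitm3 was lower in the Cd34/Adgrl4 gate there.

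In the IR library the contrasts with the Klf1 and Mpo gates were smaller. The excess of the Cd34/Adgrl4 gate over the Klf1 gate was 8.10 times for Ifitm1 and 2.95 for Ifitm3, and its excess over the Mpo gate 3.70 and 1.18. Against the Siglech gate, with 41 IR cells left, that of Ifitm1 was 26.3 times with a wide interval (12.8 to 65.4) and that of Ifitm3 2.66. Summed over the Cd34/Adgrl4 gate, Ifitm1 was lower in IR than in Control. Ifitm3 was higher in it and had larger IR over Control ratios in the Mpo and Klf1 gates.

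Ifitm3 was higher in IR than in Control in every gate beyond counting error. It stood at 520, 824 and 390 CPM in the Cd34/Adgrl4 gate (IR over Control 1.58, 1.57 to 1.60). It stood at 449, 785 and 324 in the Mpo gate (1.75, 1.73 to 1.77), and at 119, 309 and 121 in the Klf1 gate (2.60, 2.50 to 2.70). Of these gates the ratio was largest in the erythroid cells, which had the lowest Control level.

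In the Cd79a gate Ifitm3 stood at 224, 319 and 157 CPM (1.43, 1.39 to 1.47), in the Retnlg gate at 1368, 2152 and 1216 (1.57, 1.54 to 1.60) and in the Siglech gate, with only 273, 46 and 79 cells, at 162, 442 and 130 (2.73, 2.35 to 3.17). It passed the 1.5-fold call in 5 of 6 gates. The background of genes called higher was 3.22% in the Cd34/Adgrl4 gate, 3.82% in Mpo, 4.06% in Klf1, 5.57% in Cd79a, 5.12% in Retnlg and 5.36% in Siglech. As differences in CPM the order was another one, since the rise was 784 in Retnlg, 336 in Mpo, 304 in Cd34/Adgrl4, 280 in Siglech, 190 in Klf1 and 95.5 in Cd79a.

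With the cells of both gates left out, the IR over Control ratio of Ifitm3 was 2.14 in the Mpo gate against 1.32 in what remained of the Cd34/Adgrl4 gate, which is 1.61 times as large (1.55 to 1.68). It was 2.98 against 1.60 for the Klf1 gate, 1.87 times as large (1.78 to 1.958), and 3.39 against 1.58 for the Siglech gate, 2.15 times as large (1.72 to 2.68). For the Cd79a and Retnlg gates the gap was small, at 1.05 (1.01 to 1.10) and 0.974 (0.952 to 0.996). The ratio of Ifitm3 was thus smaller in the Cd34/Adgrl4 gate than in myeloid, erythroid and plasmacytoid cells beyond counting error. The plasmacytoid value rested on 41 IR cells. In the whole Siglech gate the ratio was 2.73, and 2.16 with the allowance for neutrophil RNA described below taken off. The ratio in the Cd34/Adgrl4 gate was close to that of B-lineage cells and neutrophils, 2 comparisons whose direction depended on the processing.

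In the IR+CBD library Ifitm3 was lower than in IR in all 6 gates, at ratios between 0.294 in Siglech and 0.565 in Retnlg, and called in all 6. The background of genes called lower was 2.46% in the Cd34/Adgrl4 gate, 2.11% in Mpo, 4.03% in Klf1, 3.19% in Cd79a, 3.31% in Retnlg and 4.57% in Siglech. In 5 gates Ifitm3 was below its Control level beyond counting error, at 0.703 to 0.889, and in the Klf1 gate it was at 1.02 (0.973 to 1.06). Ifitm3 was also highest in IR in 3 more sets of cells, which overlapped the gates and were chosen after their values were seen. It was at 641, 1282 and 591 CPM in cells with 2 or more UMIs each of Csf1r and Ccr2 (monocyte lineage). With 3 Nkg7 and 1 Klrd1 UMIs (natural killer and cytotoxic T cells) it was at 314, 678 and 275. With 5 Pf4 and 1 Itga2b UMIs (megakaryocytes) it was at 696, 1027 and 703. Of the Csf1r/Ccr2 cells, 78.6, 84.4 and 79.9% also passed the Mpo gate, and of the Nkg7/Klrd1 cells 25.7, 30.8 and 26.1%.

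**Figure D2:**
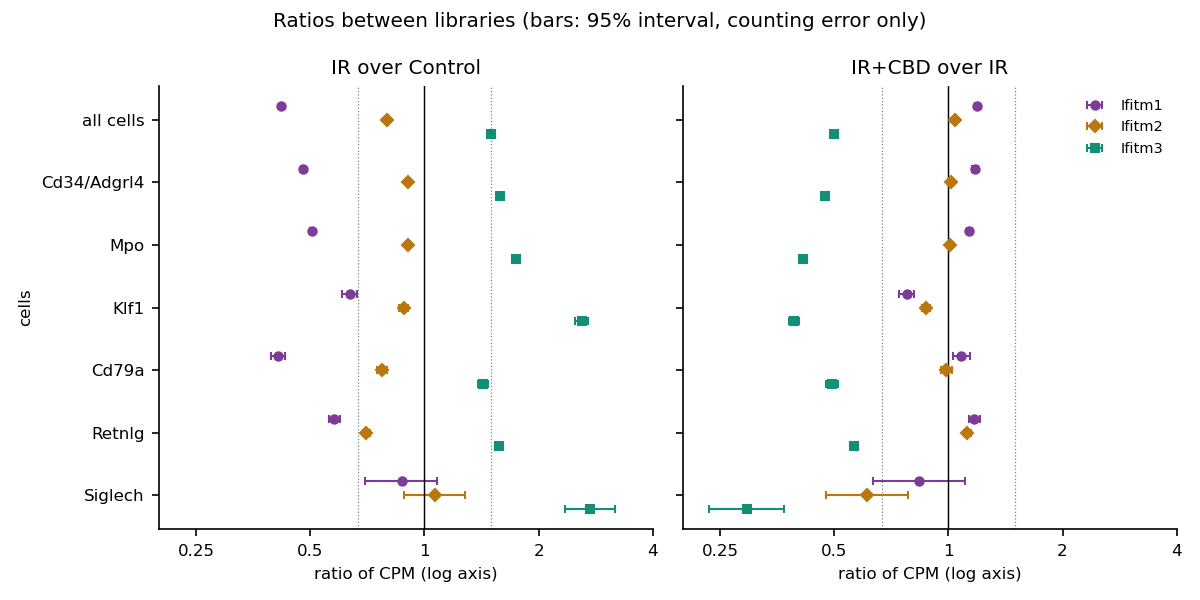
Ratio of CPM between libraries (log axis) for Ifitm1 (purple circles), Ifitm2 (orange diamonds) and Ifitm3 (green squares) in all cells and the 6 gates, with 95% intervals as bars, a solid line at 1 and dotted lines at the 1.5-fold call. Ifitm3 lay right of 1 in every population for IR over Control and left of the lower call for IR+CBD over IR, while Ifitm1 lay left of 1 for IR over Control, with the interval of the Siglech gate reaching 1.08.

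Ifitm1 went the other way. In the Cd34/Adgrl4 gate it stood at 931, 446 and 524 CPM (IR over Control 0.479, 0.473 to 0.485), called lower like 9.02% of genes there. It stood at 672, 340 and 386 in the Mpo gate (0.505), at 234, 96.0 and 104 in the Cd79a gate (0.411), at 659, 382 and 447 in the Retnlg gate (0.579) and at 124, 78.9 and 61.2 in the Klf1 gate (0.635). These 5 gates were called lower, where the background of genes was 5.71% in Mpo, 5.41% in Cd79a, 4.42% in Retnlg and 5.56% in Klf1. The Siglech gate, at 186, 162 and 136 CPM, did not separate (0.871, 0.698 to 1.08), with 12.2% of genes called lower there.

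The ratios moved when cells that also passed the Cd34/Adgrl4 gate were left out. IR over Control for Ifitm1 was 0.827 (0.799 to 0.856) in the Mpo gate, 0.711 (0.658 to 0.769) in Cd79a, 0.645 (0.621 to 0.670) in Retnlg and 1.05 (0.982 to 1.13) in Klf1. The Siglech gate went the other way, from 0.871 to 0.214 (0.0849 to 0.451), on 41 IR cells. The levels left were low in the Klf1 gate (53.4 CPM in Control and 56.1 in IR) and in the Cd79a gate (57.9 and 41.2). In Cd34/Adgrl4 cells without Mpo the ratio was 0.523, so that the ratio of the Mpo cells outside that gate was 1.58 times as high (1.51 to 1.66).

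Dividing the Cd34/Adgrl4 gate separated the members further. In the Hlf/Mecom cells Ifitm1 stood at 1546, 747 and 801 CPM (IR over Control 0.483, 0.473 to 0.494), called lower like 9.78% of genes there. In these cells Ifitm3 stood at 674, 773 and 459 CPM, with an IR over Control ratio of only 1.15 (1.12 to 1.18). They had a high Ifitm1 level, and the excess of Ifitm3 in IR did not reach the call that 3.37% of genes passed there. IR+CBD over IR of Ifitm3 was 0.593 (0.574 to 0.613), called lower with 2.83% of genes.

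In the other gated cells the ratio of Ifitm3 was larger. With under 5 Mpo UMIs it stood at 442, 654 and 355 CPM (1.48, 1.39 to 1.57), and with 5 or more at 469, 846 and 372 CPM (1.80, 1.78 to 1.83). In Mpo cells outside the gate it stood at 334, 714 and 240 CPM (2.14, 2.09 to 2.19). From the Hlf/Mecom cells to the Mpo cells outside the gate, the Control level of Ifitm3 thus went from 674 to 334 CPM while the IR level lay between 654 and 846 CPM without following it. The Control level of Ifitm1 was 1546, 775, 708 and 217 CPM over the same divisions.

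Where the Hlf/Mecom cells were limited to under 5 Mpo UMIs (517, 128 and 173 cells), Ifitm1 stood at 1706, 783 and 632 CPM and Ifitm3 at 805, 993 and 495 CPM. The Ifitm3 ratio of IR over Control was then 1.23 (1.18 to 1.29). Ifitm1 was lower in IR+CBD than in IR in these cells, at 0.807 (0.762 to 0.855), against 1.18 (1.16 to 1.19) in the whole gate. In the other gated cells, those outside the Hlf/Mecom division, it was at 1.22 (1.19 to 1.24) with 5 or more Mpo UMIs and at 0.950 (0.881 to 1.025) with under 5. IR+CBD over Control in the Hlf/Mecom cells was 0.518 for Ifitm1 and 0.680 for Ifitm3, both below Control beyond counting error.

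**Figure D3:**
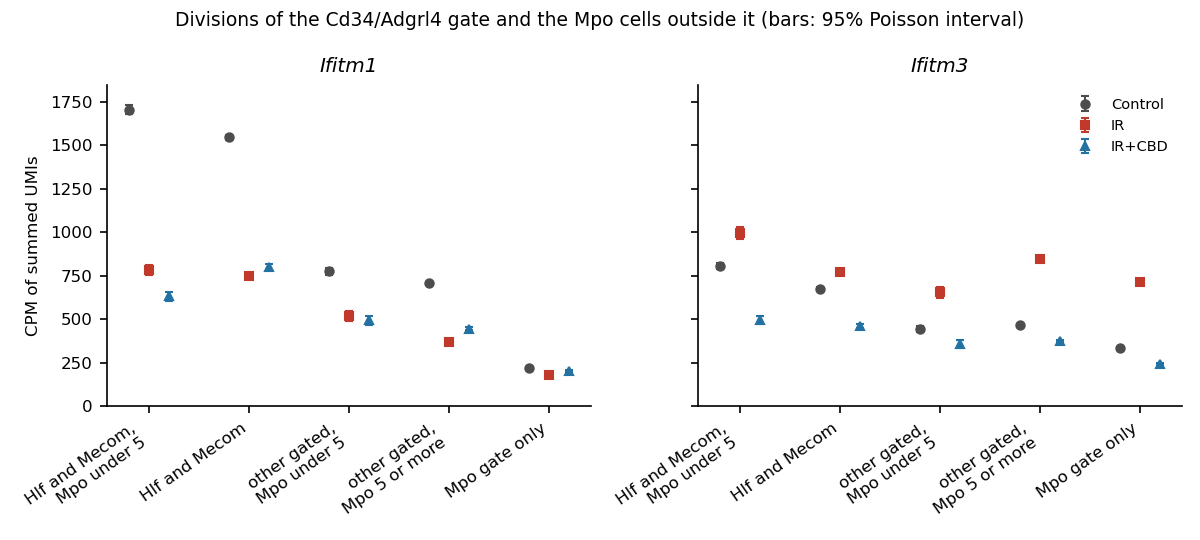
CPM of summed UMIs of Ifitm1 and Ifitm3 in divisions of the Cd34/Adgrl4 gate and in Mpo cells outside it, with Control as grey circles, IR as red squares, IR+CBD as blue triangles and 95% Poisson intervals as bars; the first division is part of the second. The Control level of Ifitm1 went from 1706 to 217 CPM from left to right, while Ifitm3 in IR was 993 CPM in the first division and between 654 and 846 in the others.

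The balance of the pair shifted in every gate. Per Ifitm1 UMI, the Cd34/Adgrl4 gate had 0.558 Ifitm3 UMIs without irradiation, 1.85 in IR and 0.743 with cannabidiol. The Hlf/Mecom cells had 0.436, 1.03 and 0.573, the Mpo gate 0.667, 2.31 and 0.840, the Klf1 gate 0.959, 3.92 and 1.98, and the Retnlg gate 2.07, 5.64 and 2.72. These are ratios of captured 3′ ends of different transcripts and not of molecules in the cell, so that only their change between libraries can be read. The summed family was lower in IR than in Control in the Cd34/Adgrl4 gate, at 2134, 1881 and 1546 CPM, and higher in the Klf1 gate, at 620, 719 and 471 CPM.

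Cell by cell, after thinning each cell to 2000 UMIs to remove depth, Ifitm1 was detected in 60.6% (58.8 to 62.3, exact Clopper-Pearson), 43.1% and 43.6% of Cd34/Adgrl4 cells, and unthinned in 89.8, 85.8 and 81.1%. Ifitm3 was detected in 57.9, 73.0 and 49.5% of them, and unthinned in 96.5, 99.0 and 96.1%. For free RNA in the droplets, the neutrophil gene Ifitm6 was detected in 3.82, 3.69 and 3.91% of these thinned cells. In the Klf1 gate (median 39670 to 42567 UMIs against 26468 to 32784 in Cd34/Adgrl4), Ifitm1 was detected in 11.4, 8.86 and 6.87% of thinned cells and Ifitm3 in 16.04, 44.4 and 19.8%. At 2000 UMIs a higher level by itself raises the share of cells with a UMI, so that these shares do not count the cells that express Ifitm3. Unthinned, 87.2% of Control cells in the Klf1 gate had an Ifitm3 UMI.

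In the Cd34/Adgrl4, Mpo and Retnlg gates the share of Ifitm3-positive cells differed by more percentage points between Control and IR among cells without Ifitm1. Cells with Ifitm1 started at a higher share in Control and had less room to rise. The gap in points by itself therefore cannot be read as a trait of cells without Ifitm1. Without Ifitm1 means no UMI after thinning, since 89.8% of Control cells in the Cd34/Adgrl4 gate had one unthinned. In the Cd34/Adgrl4 gate, Ifitm3 was detected in 67.6, 75.5 and 57.3% of thinned cells with an Ifitm1 UMI, and in 42.9, 71.1 and 43.4% of those without. In Control a cell with Ifitm1 was therefore more often positive for Ifitm3, and in IR the shares were close. In the Mpo gate the shares were 60.6, 71.3 and 52.5% with Ifitm1 and 37.7, 64.8 and 32.7% without. In the Retnlg gate they were 92.0, 96.4 and 89.2% with Ifitm1 and 84.7, 96.8 and 84.4% without. The Klf1 gate did not show this in percentage points, at 35.8, 68.0 and 30.9% with Ifitm1 and 13.5, 42.1 and 19.0% without. Nor did the Cd79a gate, at 31.7, 37.3 and 24.1% with and 12.4, 16.7 and 8.02% without. Cells with no UMI of any member made up 8.51, 6.51 and 11.9% of the Cd34/Adgrl4 gate, and only 2.88, 3.99 and 6.88% of its Hlf/Mecom cells.

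**Figure D4:**
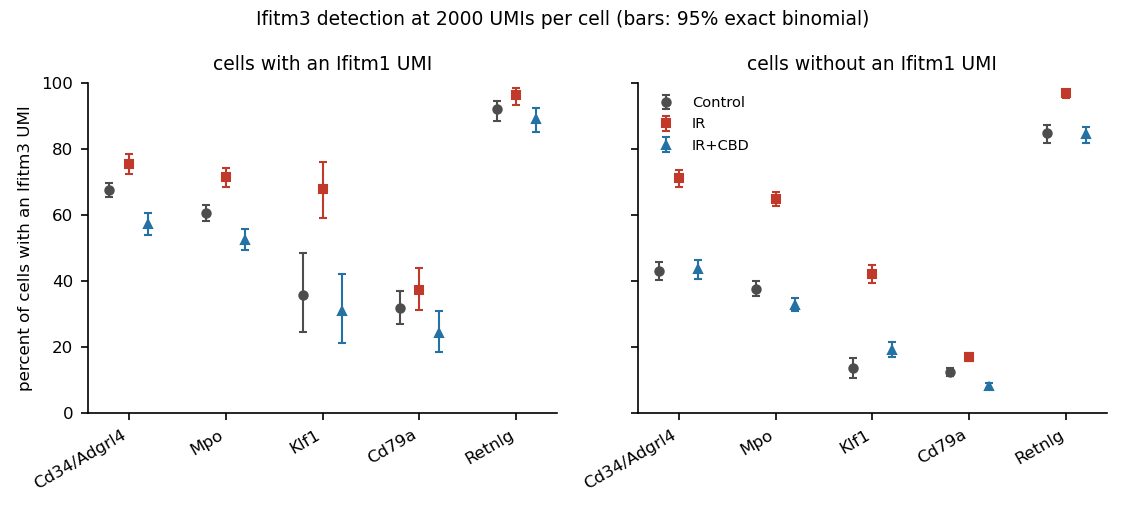
Percent of cells with an Ifitm3 UMI after thinning to 2000 UMIs, among cells with and without an Ifitm1 UMI, in 5 gates, with Control as grey circles, IR as red squares, IR+CBD as blue triangles and exact 95% binomial intervals as bars. In the Cd34/Adgrl4 gate without Ifitm1 the IR library was at 71.1% and the others at 42.9 and 43.4%.

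Ifitm2 changed little. In the Cd34/Adgrl4 gate it stood at 635, 575 and 586 CPM (IR over Control 0.905, 0.894 to 0.917), and in no gate did IR over Control pass the call. The lowest ratio was in the Retnlg gate, at 1550, 1090 and 1223 CPM (0.703, 0.689 to 0.718), and the Siglech gate was at 1.06 (0.883 to 1.28). IR+CBD over IR was called only in the Siglech gate, at 0.611 (0.475 to 0.785), on 143 and 119 UMIs.

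Ifitm6, which is carried by neutrophils, was read only in the Retnlg gate. It stood there at 4172, 3218 and 3457 CPM (IR over Control 0.771, 0.762 to 0.781, and IR+CBD over IR 1.07, 1.06 to 1.09), and none of these passed the call. In every other gate of the rule its level was near or below what the neutrophil transcript S100a8 would bring along at the Ifitm6 to S100a8 proportion of the Retnlg gate, an amount equal to between 99.6 and 233% of the Ifitm6 level found. Its 232 CPM in the Siglech gate of IR, against 85.5 in Control and 71.5 in IR+CBD, came with S100a8 at 7451 CPM against 2327 and 2475. In the cells with Csf1r and Ccr2 UMIs, most of them also in the Mpo gate, the same allowance was 54.4 to 68.1% of an Ifitm6 level of 60.3 to 74.2 CPM.

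For the other members the same allowance differed between populations. It was 3.52 to 5.33% of the Ifitm3 level and 0.989 to 1.46% of the Ifitm1 level in the Cd34/Adgrl4 gate, and 7.37 to 12.5% of Ifitm3 in the Klf1 gate. It reached 22.7 to 35.7% of Ifitm3 in the Cd79a gate and 17.8 to 35.03% in the Siglech gate, and 15.7 to 31.0% of Ifitm3 and 11.1 to 23.0% of Ifitm1 in Mpo cells outside the Cd34/Adgrl4 gate. With it taken off, an alternative added after seeing the data, Ifitm1 in those Mpo cells stood at 167, 160 and 175 CPM, an IR over Control ratio of 0.955 in place of 0.827. Ifitm3 stood there at 230, 602 and 170 CPM, a ratio of 2.61 in place of 2.14. For Ifitm6 in the same cells the allowance was 283, 395 and 345% of the level found. It was thus larger than the neutrophil RNA present, and the values with it taken off are an outer limit and not a corrected level.

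Interferon targets moved in the direction of Ifitm3. The list of targets was chosen with earlier results of these data known. Of 33 interferon targets listed, 32 had a gene row, and 30 of these were called higher in IR over all cells, where 5.25% of all genes were. Their median ratio was 2.99 where the median of all genes was 0.963. The highest were Ifit3b at 11.3 and Ifit3 at 6.82, of a family that binds foreign RNA, and the lowest Ifit2 at 1.303 and Sp100 at 1.36. In IR+CBD over IR, 29 of the 32 were called lower, where 2.85% of all genes were. The median was 0.368, and Ifi44 at 0.0905 and Ifi27l2a at 0.157 were the lowest. The IR over Control ratio of Ifitm3 was below that of 30 of the 32 targets over all cells and of 22 of 31 in the Cd34/Adgrl4 gate, and Ifitm1 and Ifitm2 lay below all of them. Ifi27l2a, an interferon-induced gene, stood at 23.9, 108 and 15.5 CPM in the Cd34/Adgrl4 gate, and Irf7, the regulator that amplifies interferon production, at 4.02, 14.3 and 3.68 CPM.

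The targets also rose in the cells where the ratio of Ifitm3 was smallest. In the Hlf/Mecom cells 22 of 30 targets with enough UMIs were called higher in IR, where 3.37% of all genes were. Their median was 2.18, led by Mx1 at 4.45 and Rtp4 at 4.19, and only 1 of the 30, Samd9l at 0.972, had a lower ratio than Ifitm3. The medians were 2.41 in the whole Cd34/Adgrl4 gate (26 of 31 called), 3.01 in Mpo (28 of 31), 3.55 in Klf1 (29 of 30), 3.53 in Cd79a (29 of 31), 3.35 in Retnlg (29 of 30) and 1.71 in Siglech (9 of 15). Of all genes, 3.22, 3.82, 4.06, 5.57, 5.12 and 5.36% were called higher in these gates, in the same order.

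**Figure D5:**
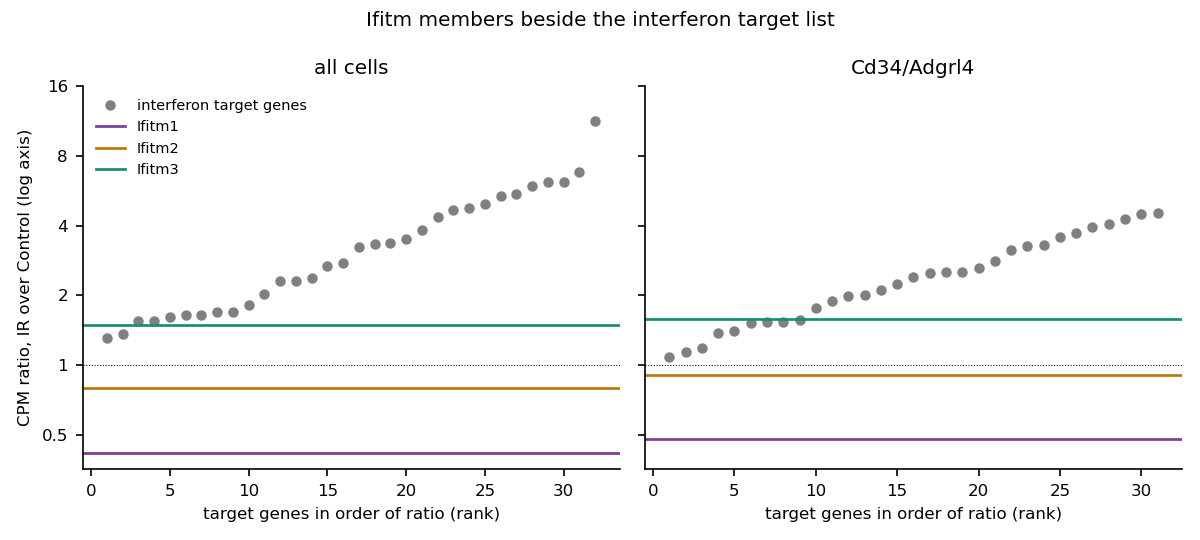
CPM ratio of IR over Control (log axis) of interferon target genes with at least 50 UMIs (grey points, in rank order) in all cells and in the Cd34/Adgrl4 gate, with lines at the ratios of Ifitm1 (purple), Ifitm2 (orange) and Ifitm3 (green). Ifitm3 lay above 2 of 32 targets in all cells and above 9 of 31 in the gate, while Ifitm1 and Ifitm2 lay below all.

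Of 10 receptor and signalling genes upstream of the targets, 2 were called higher in IR over all cells, where 5.25% of all genes were. None was called lower, where 9.82% of all genes were, and with 10 genes that absence cannot be read as a result. Irf9, a signalling factor that is itself interferon-inducible, was at 1.97 (16.1, 31.7 and 19.1 CPM), while Ifnar1, a receptor chain, was at 0.801 and Jak1, a receptor kinase, at 0.849. Among 3 inhibitors, Usp18, which blocks the type I receptor, was at 5.55 (2.89, 16.1 and 4.02 CPM), Socs1 at 0.959 and Socs3 at 0.411 (14.5, 5.95 and 6.55 CPM). Of 8 interferon genes only Ifng had at least 50 UMIs, at 1.24, 1.02 and 1.04 CPM. Ifnb1 had 4, 7 and 16 UMIs and Ifna2 1, 4 and 10, so that the transcripts of the type I ligands were near the limit of detection.

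Of the 5 nearest protein-coding genes on each side in the RefSeq order, Sirt3 and Psmd13 on the one side were at 0.897 and 1.00 for IR over Control in all cells, and Pkp3 and Sigirr on the other side at 1.00 and 0.775. Ptdss2 was at 1.58 in all cells and 1.14 in the Cd34/Adgrl4 gate. Cox8b, Nlrp6, B4galnt4 and Ano9 were under 1 CPM over all cells in every library, and Pgghg was at 0.900. Nlrp6, at 0.200, 0.0544 and 0.0576 CPM, had a ratio of 0.272 (0.125 to 0.541). Ifitm5, the bone-restricted member inside the cluster, stood at 0.626, 0.390 and 0.427 CPM, and Ifitm7 and Ifitm10 did not exceed 3.004 and 1.09 CPM over all cells.

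Across the 18 values of 6 gates in 3 libraries, which share cells and libraries, the genes most like each member in log2(CPM + 10) were described by Pearson's r. Tbxas1 (thromboxane synthase) followed Ifitm1 most closely at 0.96, then Tnfrsf21, Adam15, Hk2 and Gm15530 at 0.93. Pgd led for Ifitm2 at 0.97, with Mybpc3, Galm and Gyg at 0.96. Gm21188 and 1600014C10Rik led for Ifitm3 at 0.92, with Cebpb at 0.92, Gsdme at 0.91 and Tnfsf14 at 0.90. The granule gene Ltf led for Ifitm6 at 0.995, with AA467197, Cd177, Lcn2 and Rdh12 at 0.99. None of the interferon targets was among the 5 genes most like Ifitm3. Between members, r ran from 0.33 for Ifitm1 with Ifitm6 to 0.85 for Ifitm2 with Ifitm3. Ifitm1, Ifitm2 and Ifitm3 are close paralogs, and reads that match several of them may have been dropped or assigned to the wrong one by the counting, so that their levels are less certain than those of single-copy genes.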

How the data were processed

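Bone marrow cells of 3 libraries, 1 per condition and each pooled from 3 mice, were measured by droplet 3′ single-cell RNA sequencing. The authors deposited raw UMI counts per gene and cell, with no normalization. The submitters' processing notes name Cell Ranger 4.0 and GRCm39, whereas the headers of the deposited matrices name version 7.0.1. Barcodes needed at least 200 genes and no more than 5% of UMIs from mitochondrial genes, limits taken from the methods of the study. Doublets were kept, and removing those marked by Scrublet (scanpy 1.11.5, 0.8% per 1000 cells) was an alternative, as were other filters, gate limits and scalings. UMIs were summed per library and gate with Python 3.11.15, numpy 2.4.6 and scipy 1.17.1, and given as CPM with exact Poisson 95% intervals. Ratios have exact conditional binomial intervals, and ratios of ratios Wald intervals on the log scale. Shares were thinned to 2000 UMIs per cell. With 1 library per group no test was run, and a call is a ratio of 1.5 or more, or 0.667 or less, on at least 50 UMIs. Intervals cover counting error only. The 4 members, the gates and the gene lists were chosen with earlier results of these data known. Genes were named by a rule, which took the members, the other Ifitm genes, 5 neighbours a side, the 5 most alike genes (at least 200 UMIs) and, of each interferon list, the 2 highest and 2 lowest ratios. Some genes that the rule takes are not reported here. Irf7, Ifnb1 and Ifna2 fall outside it and were chosen after their values were seen. Promoter sequences came from RefSeq on GRCm38.p6, and 23 of the 33 interferon targets had a window, too few to give a share of the list. The exact ratio interval and the call were run on simulated Poisson counts. This is the model that the interval assumes, without variation between cells or mice, so that the run cannot check the interval against such variation. The Wald intervals were not part of it.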

Additional observations from a re-analysis of the deposited data

Results flagged for a closer look

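A few differences between gates in the change from IR to IR+CBD lay in opposite directions beyond counting error, with cells of both gates left out. For Ifitm1, IR+CBD over IR was 1.12 in Mpo cells and 0.856 in Cd34/Adgrl4 cells, 1.31 times as high. It was 0.843 in Klf1 cells and 1.18 in Cd34/Adgrl4 cells, 0.712 times as high. For Ifitm2 it was 0.876 in Klf1 cells and 1.02 in Cd34/Adgrl4 cells, 0.862 times as high. For Ifitm6 it was 1.08 in Retnlg cells and 0.767 in Cd34/Adgrl4 cells, 1.41 times as high, where the Cd34/Adgrl4 level was within the allowance for neutrophil RNA. These differences were not tested over samples, since every condition had 1 library.

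The barcodes that the limits on genes and mitochondrial UMIs removed (1526, 1606 and 1611) were in no comparison above. Ifitm3 stood at 146, 170 and 76.5 CPM in them, with IR over Control at 1.16 (1.04 to 1.29) and IR+CBD over IR at 0.451. Ifitm1 stood at 134, 92.8 and 71.4 CPM there. Its IR+CBD over IR ratio was 0.770 (0.663 to 0.893), in the opposite direction to the 1.19 over all cells kept. Ifitm3 and Ifitm1 thus kept their directions between Control and IR outside the cells analysed.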

How the results depend on the processing

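No paired analysis was possible because every condition had 1 library, and for the same reason no library could be left out in turn. Ifitm1, Ifitm2 and Ifitm3 each had 68 alternative values per contrast. Each value was a setting in a population, and the populations share cells, so that the 68 are not separate settings. The direction of Ifitm3 was the same in all 68 for both contrasts (IR over Control 1.15 to 4.07, IR+CBD over IR 0.0804 to 0.593). That of Ifitm1 was the same in 67 of 68 for IR over Control and 62 of 68 for IR+CBD over IR, and that of Ifitm2 in 63 and 60 of 68. A mitochondrial limit of 10%, a minimum of 1000 genes and leaving out cells with an endothelial UMI were also run. The depth limits the Siglech gate, with 46 IR cells, and Ifitm6 outside neutrophils.

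Values below are IR over Control and then IR+CBD over IR unless 1 contrast is named, and for none of them was the cause tested. Over all cells, Ifitm1 gave 0.389 with cells of exactly 1 gate, 0.469 and 1.22 with the mean of per-cell CPM, 0.436 with scaling by the median gene ratio, 0.393 and 1.16 with granulocyte RNA taken off, 0.549 and 1.15 with Control shares, and 1.22 for IR+CBD over IR without predicted doublets. Ifitm3 gave 1.47 with cells of exactly 1 gate, 1.55 and 0.551 with per-cell CPM, 1.55 with median scaling, 1.42 and 0.428 with granulocyte RNA taken off, and 1.70 and 0.472 with Control shares, so that its call changed with the setting. Ifitm2 turned for IR+CBD over IR, to 0.957 with granulocyte RNA taken off and 0.999 with Control shares.

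In the Cd34/Adgrl4 gate, Ifitm1 gave 0.472 and 1.13 with doubled limits, 0.518 and 0.952 with cells of exactly 1 gate, 0.452 and 1.14 with per-cell CPM, and 0.495 with median scaling. Ifitm3 gave 1.62 and 0.461 without doublets, 1.45 and 0.497 with doubled limits, 1.31 and 0.531 with cells of exactly 1 gate, 1.53 with per-cell CPM, 1.64 with median scaling, and 0.464 for IR+CBD over IR with granulocyte RNA taken off. In all cells with Hlf and Mecom UMIs, gated or not, IR+CBD over IR of Ifitm1 was 1.09 and Ifitm3 gave 1.16 and 0.591. In the divisions, chosen after seeing the data, Ifitm1 gave 1.07 for IR+CBD over IR in gated Hlf/Mecom cells, 0.459 and 0.807 in those with under 5 Mpo UMIs, 0.668 and 0.950 in other cells with under 5, and 0.517 and 1.22 in those with 5 or more. Ifitm3 gave 1.15 and 0.593, 1.23 and 0.498, 1.48 and 0.542, and 1.80 and 0.440 in the same order. The higher Ifitm1 of IR+CBD in the gate therefore turned in 3 of these settings, and Ifitm2 turned to 0.935 with cells of exactly 1 gate, and to 0.921 and 0.932 in the Hlf/Mecom and other cells with under 5 Mpo UMIs.

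The share of Cd34/Adgrl4 cells with Ifitm1 was 73.4, 60.0 and 58.4% at 5000 UMIs and 89.8, 85.8 and 81.1% unthinned, and that with Ifitm3 81.2, 91.8 and 74.7% and 96.5, 99.0 and 96.1%. With a minimum of 200 UMIs, 5.85% of genes were called lower in the gate. Among single gates, Ifitm1 turned to 1.16 for IR over Control in Klf1 cells of exactly 1 gate and to 0.856 for IR+CBD over IR in Cd79a cells without doublets. The Ifitm3 ratio against the Cd34/Adgrl4 gate turned to 0.993 for Cd79a and 1.01 for Retnlg without doublets, and to 1.07 with doubled limits and 1.20 with cells of exactly 1 gate for Retnlg. The Ifitm1 ratio for Siglech turned to 1.22 without doublets. Ifitm6 turned without doublets in Mpo (0.840), Klf1 (1.07) and Cd34/Adgrl4 (1.55 for IR over Control, 0.531 for IR+CBD over IR), with cells of exactly 1 gate in Mpo (0.836), Klf1 (1.93), Cd79a (1.16) and Siglech (0.608), and in other Cd34/Adgrl4 cells with under 5 Mpo UMIs (0.512), all populations in which it was read as background.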
